A study of Mus musculus with 145 samples.

Results

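Saa1, Saa2, Saa3, Lcn2, Hp, Cp, Ptx3 and C3, 8 genes of the acute phase response, were followed in the dorsal skin of mice that had been under the lamps of a sunbed canopy once. They were taken by name from the 55416 genes of the deposited count table, and all 8 passed the low count filter that left 18677 genes. They were listed with their response to the light already known, so each dose against sham is given below as a description, with no p-value for any of the 8. The canopy held 8 lamps of 100 W with an output of 96.4% UVA and 3.6% UVB. Doses were sham handling, 5, 10, 20 and 40 mJ/cm2, skin was taken at 0, 6, 24, 48, 72 and 96 h, and each animal gave 1 library. There were 145 libraries in 30 groups, 25 groups of 5 animals and 5 of 4 (20 mJ/cm2 at 48 h and every irradiated group at 96 h). The sources used here give no strain, sex or age of the mice, and no group carries a transgene or other agent in the labels.

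The acute phase response is the change in secreted proteins that follows infection, burns or other injury. In the liver, interleukin 6 acts through STAT3 and interleukin 1 acts through NF-kB and C/EBP factors to switch on serum amyloid A, haptoglobin and related genes. Epithelia, macrophages and fat cells make some of the same proteins locally. Saa1 and Saa2 code for serum amyloid A proteins of the blood that bind lipoproteins, and mouse Saa3 codes for a relative made largely outside the liver. Lcn2 codes for lipocalin 2, which binds the iron carriers of bacteria. Hp codes for haptoglobin, which binds free haemoglobin, and Cp for ceruloplasmin, a copper protein that oxidizes iron. Ptx3 codes for a long pentraxin that recognizes microbes, and C3 for the central protein of complement.

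The 250 bases before the annotated start are shown for the 3 serum amyloid genes and Lcn2, the members with the largest fold changes, because those of Saa1 and Saa2 are near copies and that of Saa3 is not. The sequences are from RefSeq on GRCm38.p6, 5′ to 3′ on the strand of the gene, and capitals mark matches on either strand to GGG, any 5 bases and CC (an NF-kB consensus) or TTNNGCAA (a C/EBP consensus).
Saa3 (chr7:46715677-46715926, minus strand): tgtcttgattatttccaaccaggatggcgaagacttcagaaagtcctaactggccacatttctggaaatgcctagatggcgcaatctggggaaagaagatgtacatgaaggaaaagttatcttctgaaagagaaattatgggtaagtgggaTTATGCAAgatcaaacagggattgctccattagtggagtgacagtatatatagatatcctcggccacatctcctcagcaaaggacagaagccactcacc
Saa1 (chr7:46742981-46743230, minus strand): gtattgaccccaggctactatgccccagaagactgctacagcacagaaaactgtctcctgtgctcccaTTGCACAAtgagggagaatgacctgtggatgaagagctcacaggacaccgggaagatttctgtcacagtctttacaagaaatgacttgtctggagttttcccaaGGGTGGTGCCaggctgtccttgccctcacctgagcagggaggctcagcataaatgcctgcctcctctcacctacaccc
Saa2 (chr7:46751583-46751832, plus strand): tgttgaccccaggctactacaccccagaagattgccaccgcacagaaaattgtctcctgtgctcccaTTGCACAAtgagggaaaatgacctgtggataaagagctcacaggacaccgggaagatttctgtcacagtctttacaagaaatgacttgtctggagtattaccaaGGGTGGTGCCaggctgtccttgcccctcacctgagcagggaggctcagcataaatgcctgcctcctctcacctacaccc
Lcn2 (chr2:32387740-32387989, minus strand): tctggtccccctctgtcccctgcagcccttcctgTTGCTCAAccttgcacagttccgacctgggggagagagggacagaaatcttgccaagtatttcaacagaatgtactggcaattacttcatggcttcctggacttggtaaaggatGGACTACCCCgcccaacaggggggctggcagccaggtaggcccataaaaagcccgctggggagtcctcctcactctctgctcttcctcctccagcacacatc

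The Saa1 and Saa2 windows were 94.8% identical, with 238 identical positions, 11 mismatches and 2 gaps, whereas Saa1 and Saa3 were 52.2% identical. Saa1 and Saa2 each held the same NF-kB match (GGGTGGTGCC) and the same C/EBP match (TTGCACAA, read on the strand shown). Saa3 held a C/EBP match (TTATGCAA) at -99 to -92 from the start and no NF-kB match. Lcn2 held an NF-kB match at -102 to -93 and a C/EBP match at -216 to -209. Such matches are common: among 32851 RefSeq promoter windows of the same length, 45.8% held the NF-kB letters and 9.56% the C/EBP letters, so a match describes the letters and is not a binding site. A STAT consensus, TTCNNNGAA, is held by 7.02% of windows and was in none of the members' windows looked at, which cover every member but Hp. The principal transcripts of Saa1 (609 bases) and Saa2 (652 bases) were 87.3% identical, and 2 of the 535 windows of the read length (75 bases) in Saa1 also occur in Saa2, 0.374%. Few whole reads can therefore match both genes, though an estimate that shares reads out may still move some between them. Saa1 shared no such window with Saa3.

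At 40 mJ/cm2 Saa2 and Saa3 were called higher than in sham skin at 24, 48 and 72 h, Saa1 at 48 and 72 h, Saa3 also at 96 h, Lcn2 at 6, 24, 48 and 72 h, and Ptx3 at 6 and 48 h. Haptoglobin, ceruloplasmin and C3 were not called at any dose or time, and haptoglobin spread widely between animals. A gene was called where edgeR's quasi-likelihood test gave a Benjamini-Hochberg adjusted p under 0.05 over all 18677 genes. Members called higher after 40 mJ/cm2 numbered 0 of 8 at 0 h, 2 at 6 h (2.14% of all genes were called higher), 3 at 24 h (1.65%), 5 at 48 h (3.97%), 4 at 72 h (1.04%) and 1 at 96 h (0.118%). No member was called lower, while 0% of all genes were called lower at 0 h, 2.75% at 6 h, 1.26% at 24 h, 3.76% at 48 h, 0.22% at 72 h and 0% at 96 h. At 20 mJ/cm2, 1 of 48 tests of the members was called, Saa3 at 48 h, where 0.428% of all genes were called higher and 0.0535% lower. At 6 h these shares were 0.161% and 0.273%, at 24 h 0.0696% and 0.00535%, and at the other times 0%. At 5 and 10 mJ/cm2 no member was called, nor was any other gene (0%). The median log2 fold change of the 8 genes after 40 mJ/cm2 was -0.32 at 0 h, 0.46 at 6 h, 1.47 at 24 h, 3.25 at 48 h, 3.96 at 72 h and 2.98 at 96 h, beside medians of all genes between -0.02 and 0.05. Since the genes were chosen on these contrasts, nothing is read from these counts. In whole skin, fewer cells of a type and less RNA per cell cannot be told apart.

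**Figure D1:**
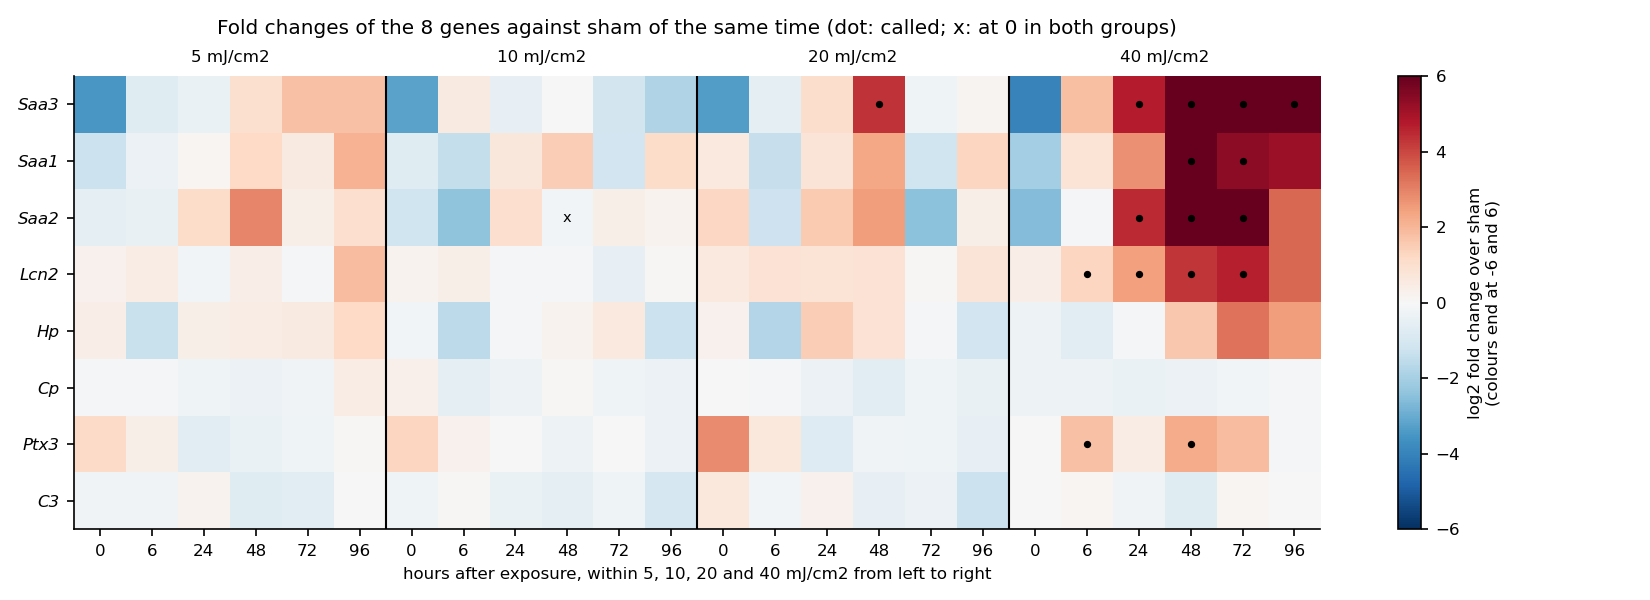
Log2 fold changes of the 8 genes (rows) for each dose and time against sham of that time (columns, hours after exposure within each dose), with a dot where the gene was called. Dots lie at 40 mJ/cm2 in 15 of 48 cells and at 20 mJ/cm2 in 1, and colours end at -6 and 6.

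Saa3 changed most. At 48 h it had 156, 71.6, 956, 795 and 604 CPM (read counts scaled to the total of each library) in 40 mJ/cm2 skin, against 0, 0.24, 0.283, 0.297 and 0.616 CPM in sham skin. Every irradiated animal was above every sham animal, and the log2 fold change was 10.54 ± 0.83 (SE, n = 5 each). At 72 h the values were 766, 34.8, 41.1, 1337 and 18.8 CPM in 40 mJ/cm2 skin, against 1.42, 0.237, 0.472, 0.415 and 0.529 CPM in sham skin (9.39 ± 1.26). The groups were again apart, and within the irradiated group replicates 1 and 4 stood far above the other 3. At 96 h Saa3 had 60.7, 33.1, 9.06 and 263 CPM in 40 mJ/cm2 skin (n = 4), against 0.191, 1.26, 0.206, 0.528 and 0.166 CPM in sham skin (n = 5), a log2 fold change of 7.91 ± 0.95 with no overlap. These 3 calls held in each fit without 1 library.

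Earlier, Saa3 was uneven. At 24 h it had 2.5, 60.6, 1.28, 4.78 and 94.2 CPM in 40 mJ/cm2 skin, against 1.87, 0.815, 0.861, 0.23 and 1.7 CPM in sham skin. Replicates 2 and 5 were high, the other 3 were close to or within the sham range, and the call (4.71 ± 1.02) was lost without 40 mJ/cm2 replicate 2 (3.73). At 6 h the values were 11.6, 19.4, 7.17, 3.87 and 19.3 CPM in 40 mJ/cm2 skin, against 2.01, 8.19, 2.74, 1.86 and 2.94 CPM in sham skin, and the fold of 1.81 ± 0.79 was not called. At 0 h Saa3 had 0.195, 0.858, 2.46, 1.25 and 0.494 CPM in 40 mJ/cm2 skin, against 0.547, 0.178, 8.18, 2.38 and 97.4 CPM in sham skin. Sham replicate 5 was alone at its level, and the fold of -4.01 ± 1.18, which was not called, moved to -1.47 without it. It was called lower with DESeq2 (-4.06), with no low count filter (-4.04) and in one fit of all libraries (-4.13). Those fits called 52, 86 and 74 genes at 0 h, against 0 in the main edgeR fit. At 5, 10 and 20 mJ/cm2 the same sham animals were the reference at 0 h. Saa3 folds there were -3.47 ± 1.12, -3.19 ± 1.17 and -3.33 ± 1.22 in the main edgeR fit, none of them called.

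Saa1 and Saa2 followed at lower levels, at most 36.2 CPM for Saa1 and 24.7 CPM for Saa2. At 48 h Saa1 had 0.953, 2.12, 12.7, 15.6 and 7.6 CPM in 40 mJ/cm2 skin, against 0, 0.04, 0, 0 and 0.493 CPM in sham skin, with no overlap and a log2 fold change of 6.22 ± 0.88. Saa2 had 1.11, 1.48, 7.7, 9.89 and 4.56 CPM in 40 mJ/cm2 skin at 48 h and was at 0 in all 5 sham libraries. Against a floor of 3 counts over the sham group, Saa2 was at least 121-fold higher (320 counts in the irradiated group). At 72 h Saa1 had 19, 0.803, 1.66, 36.2 and 0.147 CPM in 40 mJ/cm2 skin, against 0.0709, 0.237, 0.944, 0 and 0.198 CPM in sham skin (5.39 ± 1.17). Saa2 had 20, 0.803, 0.415, 24.7 and 0 CPM in 40 mJ/cm2 skin at 72 h, against 0.142, 0, 0.059, 0 and 0 CPM in sham skin (7.44 ± 1.44). Both were carried by replicates 1 and 4, while replicate 5 was within the sham range for both genes and replicate 2 for Saa1. The Saa1 call at 72 h was lost without 40 mJ/cm2 replicate 1 (4.79) or 4 (4.01) and without sham replicate 1 (5.15), 2 (5.42), 4 (5.02) or 5 (5.23). The Saa2 call at 72 h was lost without 40 mJ/cm2 replicate 1 (6.92) or 4 (5.50) and without sham replicate 2 (7.33), 4 (7.16) or 5 (7.18). With muscle genes in the model both were lost (4.68 for Saa1, 6.67 for Saa2), and with DESeq2 that of Saa2 (7.84).

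At 24 h Saa2 was also called (4.47 ± 1.03), with 0.221, 0.707, 0, 0.233 and 1.58 CPM in 40 mJ/cm2 skin, against 0.0519, 0, 0, 0 and 0.0261 CPM in sham skin. That call was lost without 40 mJ/cm2 replicate 5 (3.48) and without sham replicate 2 (4.27), 4 (4.31) or 5 (4.43), and its levels lie at or below 1.58 CPM. Saa1 at 24 h was not called (2.74 ± 0.88), except with muscle genes in the model (3.04). At 96 h 1 animal, replicate 4, held nearly all of the signal. It had 10.2 CPM of Saa1 and 2.36 CPM of Saa2, against at most 0.568 and 0.15 CPM in the other 3 animals of its group and 0.396 and 0.158 CPM in sham skin. The Saa1 fold at 96 h was not called, except with no low count filter (5.12) and in one fit of all libraries (5.18).

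**Figure D2:**
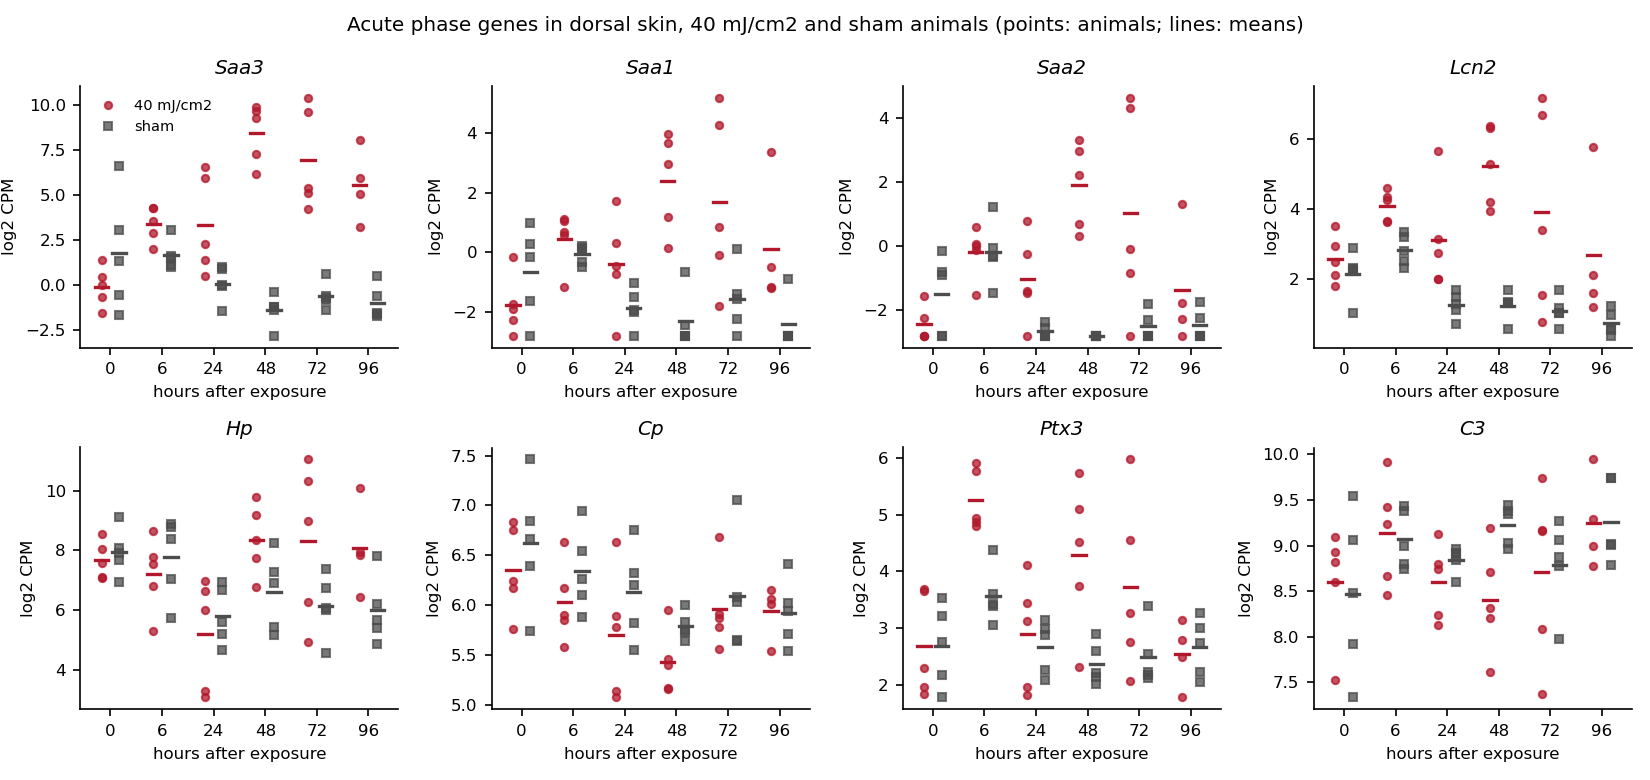
Log2 CPM of each gene by hours after exposure, in 40 mJ/cm2 animals (red circles) left of sham animals (grey squares), with a line at each mean. Saa3 stands apart from sham at 48, 72 and 96 h, Lcn2 at 6, 24 and 48 h, and Cp and C3 overlap with sham at every time.

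Lcn2 was called at 4 times. At 6 h it had 24.3, 12.2, 19.2, 12.5 and 20 CPM in 40 mJ/cm2 skin, against 9.1, 6.8, 10.1, 4.88 and 5.62 CPM in sham skin. The groups did not overlap and the log2 fold change was 1.31 ± 0.33. At 24 h the values were 6.56, 8.7, 3.84, 3.85 and 50 CPM in 40 mJ/cm2 skin, against 2.7, 3.06, 2.33, 1.5 and 2.03 CPM in sham skin (2.48 ± 0.58). Every irradiated animal was above sham, but replicate 5 stood alone and without it the fold was 1.29 and not called. At 48 h Lcn2 had 18.1, 15.2, 78.9, 82.4 and 39.2 CPM in 40 mJ/cm2 skin, against 2.38, 1.359, 2.34, 3.09 and 2.34 CPM in sham skin, a fold of 4.29 ± 0.46 that held without any 1 library. At 72 h the values split, with 102, 10.4, 1.56, 144 and 2.79 CPM in 40 mJ/cm2 skin, against 2.13, 1.9, 1.357, 1.9 and 3.11 CPM in sham skin (4.67 ± 0.86). Replicates 3 and 5 were within the sham range, and the call was lost without replicate 4 (3.41) and with DESeq2 (4.68). At 96 h Lcn2 had 4.19, 2.9, 2.17 and 54.6 CPM in 40 mJ/cm2 skin, against 1.34, 2.21, 1.17, 1.32 and 1.82 CPM in sham skin. Its fold of 3.44 ± 0.83 rested on replicate 4 and was not called, although it was called without replicate 3 (3.79), with no low count filter (3.43) and in one fit of all libraries (3.30).

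The Lcn2 call at 6 h was lost without 40 mJ/cm2 replicate 5 (1.20) and without sham replicate 4 (1.19) or 5 (1.25), and in one fit of all libraries (1.27). The call at 24 h was also lost without sham replicate 4 (2.27) or 5 (2.33). Counting members whose irradiated animals all lay above all sham animals gave 2 at 6 h (Lcn2 and Ptx3, beside 3.12% of all genes), 1 at 24 h (Lcn2, 2.09%), 4 at 48 h (Saa1, Saa2, Saa3 and Lcn2, 6.03%), 1 at 72 h (Saa3, 0.792%) and 1 at 96 h (Saa3, 1.86%).

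Haptoglobin was already abundant in sham skin and no call was made for it. At 48 h Hp had 327, 108, 575, 885 and 213 CPM in 40 mJ/cm2 skin, against 156, 119, 35.3, 43.1 and 301 CPM in sham skin. The groups overlapped and the log2 fold change was 1.63 ± 0.75. At 72 h it had 1265, 30.5, 77.5, 2124 and 506 CPM in 40 mJ/cm2 skin, against 164, 23.2, 66.5, 63.3 and 106 CPM in sham skin (3.25 ± 0.95). Replicates 1 and 4 were again highest, replicate 5 was also above sham, and replicates 2 and 3 were not. At 96 h Hp had 230, 246, 86.3 and 1088 CPM in 40 mJ/cm2 skin, against 50.6, 225, 42.1, 73.2 and 28.7 CPM in sham skin (2.52 ± 0.83). The 72 h fold was called without 40 mJ/cm2 replicate 2 (3.57) or 3 (3.54) with the level of muscle genes added to the model (4.17), with DESeq2 (3.27) and in one fit of all libraries (3.22). The 48 h fold was called with muscle genes in the model (3.79) and with no low count filter (1.62). At 6 and 24 h the fold of Hp was -0.62 ± 0.60 and -0.10 ± 0.79.

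Ptx3 was the member with the earliest change beside Lcn2. At 6 h it had 29.2, 54.5, 27.7, 30.5 and 59.8 CPM in 40 mJ/cm2 skin, against 8.17, 11.9, 10.3, 20.7 and 10.6 CPM in sham skin. The groups did not overlap, and the fold was 1.77 ± 0.41. At 24 h it was 0.45 ± 0.37 and not called. At 48 h Ptx3 had 13.2, 4.82, 53.5, 22.8 and 34.2 CPM in 40 mJ/cm2 skin, against 4.23, 4.48, 5.88, 3.86 and 7.27 CPM in sham skin (2.21 ± 0.40). Replicate 2 was within the sham range and the other 4 were above it, and the calls at 6 and 48 h both held without any 1 library. At 72 h the values were 23.2, 4.02, 9.45, 62.8 and 6.6 CPM in 40 mJ/cm2 skin, against 5.67, 4.51, 10.3, 4.32 and 4.16 CPM in sham skin. That fold (1.87 ± 0.55) was not called, but it was called without replicate 2 (2.13) or 5 (2.10), with DESeq2 (1.88) and in one fit of all libraries (1.85). At 96 h Ptx3 averaged 6.03 ± 2.26 CPM in 40 mJ/cm2 skin (SD, n = 4) and 6.48 ± 2.30 CPM in sham skin (n = 5), a difference smaller than the spread of either group.

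Cp and C3 differed from the other members. After 40 mJ/cm2 the fold of Cp lay between -0.38 at 24 h and -0.05 at 96 h, and that of C3 between -0.75 at 48 h and 0.10 at 6 h. With muscle genes in the model Cp was called lower at 24 h (-0.91). At 48 h, when Saa3 was highest, Cp averaged 43.8 ± 10.8 CPM in 40 mJ/cm2 skin and 55.4 ± 5.34 CPM in sham skin (SD, n = 5 each). C3 averaged 362 ± 148 CPM in 40 mJ/cm2 skin and 606 ± 89.9 CPM in sham skin at 48 h (-0.75 ± 0.33, not called), and with muscle genes in the model this fold was 0.24. At 20 mJ/cm2 C3 was below all sham animals at 96 h, with 149, 331, 244 and 344 CPM in 20 mJ/cm2 skin against 854, 514, 442, 856 and 518 CPM in sham skin (-1.31 ± 0.35, not called, 0.846% of all genes lay below in this way). Cp was likewise below sham at 20 mJ/cm2 and 48 h, with 48.2, 39.4, 30.8 and 26.9 CPM in 20 mJ/cm2 skin against 56.6, 53.6, 53.1, 49.7 and 63.8 CPM in sham skin (-0.61 ± 0.19, not called, 2.13% of all genes). That fold was called lower with DESeq2 (-0.61, 1113 genes called) and with muscle genes in the model (-0.62, 3031 genes), against 90 genes called in the main edgeR fit. Of the Cp values 94.5% were not whole numbers, while at most 8.97% of the values of any other member were not whole, and the cause was not tested.

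Levels between genes can be set side by side only per length. In the 40 mJ/cm2 skin of 48 h, mean CPM per kilobase of transcript ran from 931 ± 702 for Saa3 through 314 ± 232 for Hp, 70.6 ± 28.7 for C3, 51.1 ± 35.3 for Lcn2, 13.5 ± 10 for Ptx3, 12.8 ± 10.53 for Saa1 and 10.9 ± 2.67 for Cp to 7.59 ± 5.88 for Saa2 (SD, n = 5). The ranges of the mean ± 1 SD overlapped between all neighbours in that order. In the sham skin of 48 h the order was 118 ± 17.5 for C3, 97.4 ± 80.4 for Hp, 13.7 ± 1.32 for Cp, 2.71 ± 0.744 for Ptx3, 2.52 ± 0.674 for Lcn2, 0.518 ± 0.396 for Saa3, 0.175 ± 0.356 for Saa1 and 0 for Saa2. Saa3 was the highest of the 8 genes in 40 mJ/cm2 skin and the third lowest in sham skin. Over all 30 sham libraries the median level per kilobase was 98.3 for C3, 83.6 for Hp, 16.1 for Cp, 3.45 for Ptx3, 2.56 for Lcn2, 1.05 for Saa3, 0.309 for Saa1 and 0 for Saa2.

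Of these genes only Saa3 was called at the lower doses, at 20 mJ/cm2 and 48 h. The folds of Hp at 6 h were -1.335 ± 0.60, -1.575 ± 0.63 and -1.765 ± 0.61 at 5, 10 and 20 mJ/cm2. That at 40 mJ/cm2 was -0.62 ± 0.60. C3 at 96 h was -1.03 ± 0.34 at 10 mJ/cm2 and -0.04 ± 0.33 at 5 mJ/cm2. None of these folds of Hp and C3 was called. At 48 h Saa3 ran through 0, 0.24, 0.283, 0.297 and 0.616 CPM in sham skin, 0.0807, 0.316, 1.41, 0.967 and 0.653 CPM at 5 mJ/cm2, 0.16, 0, 0.567, 0.207 and 0.747 CPM at 10 mJ/cm2, and 1.12, 27.7, 0.615 and 5.85 CPM at 20 mJ/cm2. At 20 mJ/cm2 replicates 2 and 4 were clearly above sham and replicate 3 was not. The log2 fold change at 20 mJ/cm2 was 4.33 ± 0.80 and called (n = 4 and 5), and it was not called without 20 mJ/cm2 replicate 2 (2.89) or without sham replicate 1 (4.31), 3 (4.06), 4 (4.03) or 5 (4.43). Lcn2 at 20 mJ/cm2 and 48 h had 3.28, 8.89, 1.82 and 3.83 CPM, which overlapped with sham. Within 20 mJ/cm2, replicate 2 was the highest for Saa1, Saa2, Saa3, Lcn2 and Hp at 48 h. The title of that library begins with repeat and names an amount in ng other than that of the protocol. So does the title of 5 mJ/cm2 replicate 3 at 48 h, the highest of its group for Saa3 (1.41 CPM). Whether the repeat or the amount bears on these levels was not tested. At 5 mJ/cm2 and 96 h Lcn2 had 13.7, 3.57, 1.74 and 4.38 CPM in irradiated skin against 1.34, 2.21, 1.17, 1.32 and 1.82 CPM in sham skin (1.83 ± 0.79, not called), with replicate 1 alone well above the others. At 20 mJ/cm2 and 0 h Ptx3 had 42.4, 46.3, 2.8, 139 and 5.14 CPM in irradiated skin against 3.28, 4.35, 6.59, 9.12 and 11.3 CPM in sham skin (2.83 ± 0.76, not called), and replicate 5 there is a library of 0.204 M counts. At 10 mJ/cm2 and 6 h Saa1 lay below all sham animals (-1.42 ± 0.84, not called, 2.12% of all genes), at levels under 1.1 CPM in both groups.

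**Figure D3:**
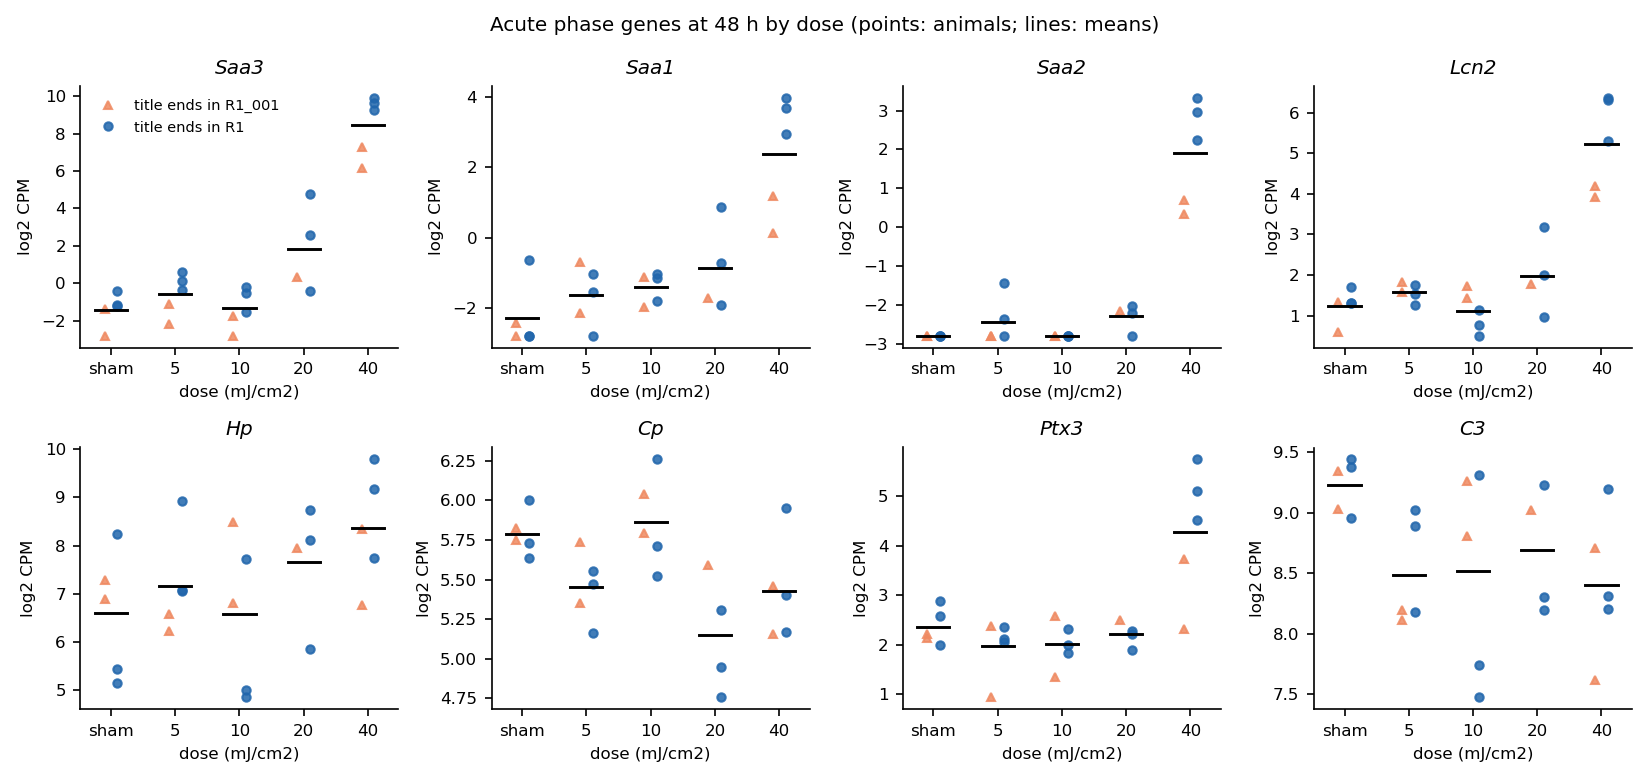
Log2 CPM of each gene at 48 h by dose, from sham to 40 mJ/cm2, with libraries titled R1_001 (triangles) and R1 (circles) and a line at each mean. Saa1, Saa2, Saa3 and Lcn2 are above every sham animal in all 5 animals at 40 mJ/cm2, with the 2 triangles below the 3 circles.

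From 24 h on, 1 animal of the 40 mJ/cm2 group was the highest for 5 or more of the 8 genes at each time, whereas at 0 and 6 h none was the highest for more than 3. At 72 h replicate 4 of the 40 mJ/cm2 group was the highest of its group for 7 of the 8 genes (all but Cp), and replicate 1 was among the top 2 for 6 (Saa1, Saa2, Saa3, Lcn2, Hp and Ptx3). At 96 h replicate 4 was the highest for 7 of the 8 (all but Ptx3, for which it was the lowest). At 24 h replicate 5 was the highest for Saa1, Saa2, Saa3, Lcn2 and Hp. At 48 h replicate 4 was the highest for 6 of the 8 and replicate 3 for Saa3 and Ptx3. Each animal was sampled once, so whether the same animals would be high at another time cannot be told.

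**Figure D4:**
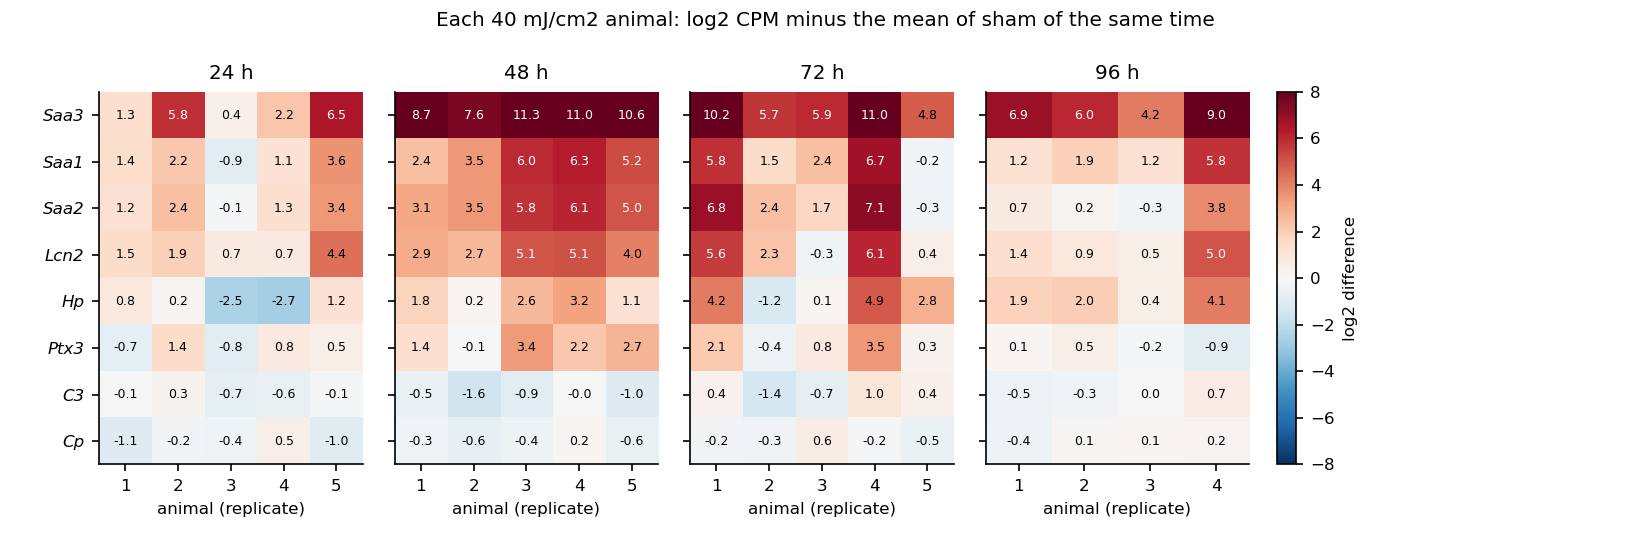
Each 40 mJ/cm2 animal (columns) at 24, 48, 72 and 96 h, as log2 CPM of each gene (rows) minus the mean of the sham animals of that time. Replicates 1 and 4 at 72 h and replicate 4 at 96 h are high for most rows.

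The libraries carry titles that end in R1_001 or in R1, and no source used here says what this marks. At 48 h the 2 irradiated animals titled R1_001 were the lowest of their group for Saa1, Saa2, Saa3 and Lcn2, so in that group the ending and the animal cannot be told apart. Within R1_001 libraries (2 against 2) the 48 h fold was 9.03 ± 0.68 for Saa3, 3.27 ± 0.40 for Lcn2, 5.14 ± 1.22 for Saa1 and 0.99 ± 0.64 for Ptx3. Within R1 libraries (3 against 3) it was 11.03 ± 1.20 for Saa3, 4.68 ± 0.50 for Lcn2, 6.63 ± 1.10 for Saa1 and 2.71 ± 0.33 for Ptx3. At 72 h, when 1 of the 2 highest animals came from each ending, Saa3 was 8.58 ± 1.39 within R1_001 and 9.95 ± 1.85 within R1, and Lcn2 was 4.81 ± 0.94 within R1_001 and 4.57 ± 1.31 within R1. At 24 h Lcn2 was 1.26 ± 0.38 within R1_001 (3 against 3) and 3.91 ± 1.16 within R1 (2 against 2), and Saa3 was 4.19 ± 1.27 within R1_001 and 5.53 ± 1.63 within R1. At 6 h Ptx3 was 1.89 ± 0.54 within R1_001 and 1.53 ± 0.73 within R1, and Lcn2 was 1.10 ± 0.30 within R1_001 and 1.63 ± 0.71 within R1. For Hp at 72 h the values were 2.79 ± 1.46 within R1_001 and 3.54 ± 1.20 within R1. At 96 h Saa3 was 6.32 ± 0.66 within R1_001 (1 animal against 2) and 8.55 ± 1.37 within R1 (3 against 3).

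In sham animals some of the genes also differed between times. The sham libraries are those each dose was set against, so their time course is not independent of how the genes were chosen and is given as a description, with no p-value. Over the 6 times, Lcn2, Saa3 and Saa2 were called, 3 of the 8 genes (4.29% of all genes were). Lcn2 in sham skin had 1.91, 7.29, 4.78, 4.56 and 4.85 CPM at 0 h, 9.1, 6.8, 10.1, 4.88 and 5.62 CPM at 6 h, and lay between 1.17 and 3.11 CPM in sham animals from 24 h on. It was lower than at 0 h at 24 h (log2 -1.06 ± 0.29), 48 h (-0.999 ± 0.29), 72 h (-1.16 ± 0.29) and 96 h (-1.55 ± 0.30), and called each time. Saa3 had 0.547, 0.178, 8.18, 2.38 and 97.4 CPM at 0 h and 2.01, 8.19, 2.74, 1.86 and 2.94 CPM at 6 h, and lay at or below 1.87 CPM from 24 h on. It was lower at 48 h than at 0 h (log2 -6.05 ± 1.17, called), also without sham replicate 5 of 0 h (-2.99 ± 0.82, called). Without that animal the differences at 24 h (-1.27) and 72 h (-2.02) were no longer called, against -4.05 and -4.94 with it, and that at 96 h still was (-2.58).

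Saa2 in sham skin had 0, 0, 0.425, 0.76 and 0.392 CPM at 0 h, 0.669, 2.22, 0.654, 0.825 and 0.216 CPM at 6 h, and no more than 0.158 CPM from 24 h on. It was called at 24 h against 0 h (-3.68 ± 1.00), and at 48 h every sham library was at 0. Saa1, Ptx3, Hp, Cp and C3 were not called over all times. Cp alone of these was called at 1 time, 48 h against 0 h (-0.95 ± 0.29). Because sham levels of Saa2, Saa3 and Lcn2 were lowest late, each fold of the irradiated skin is against a different sham level at each time.

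**Figure D5:**
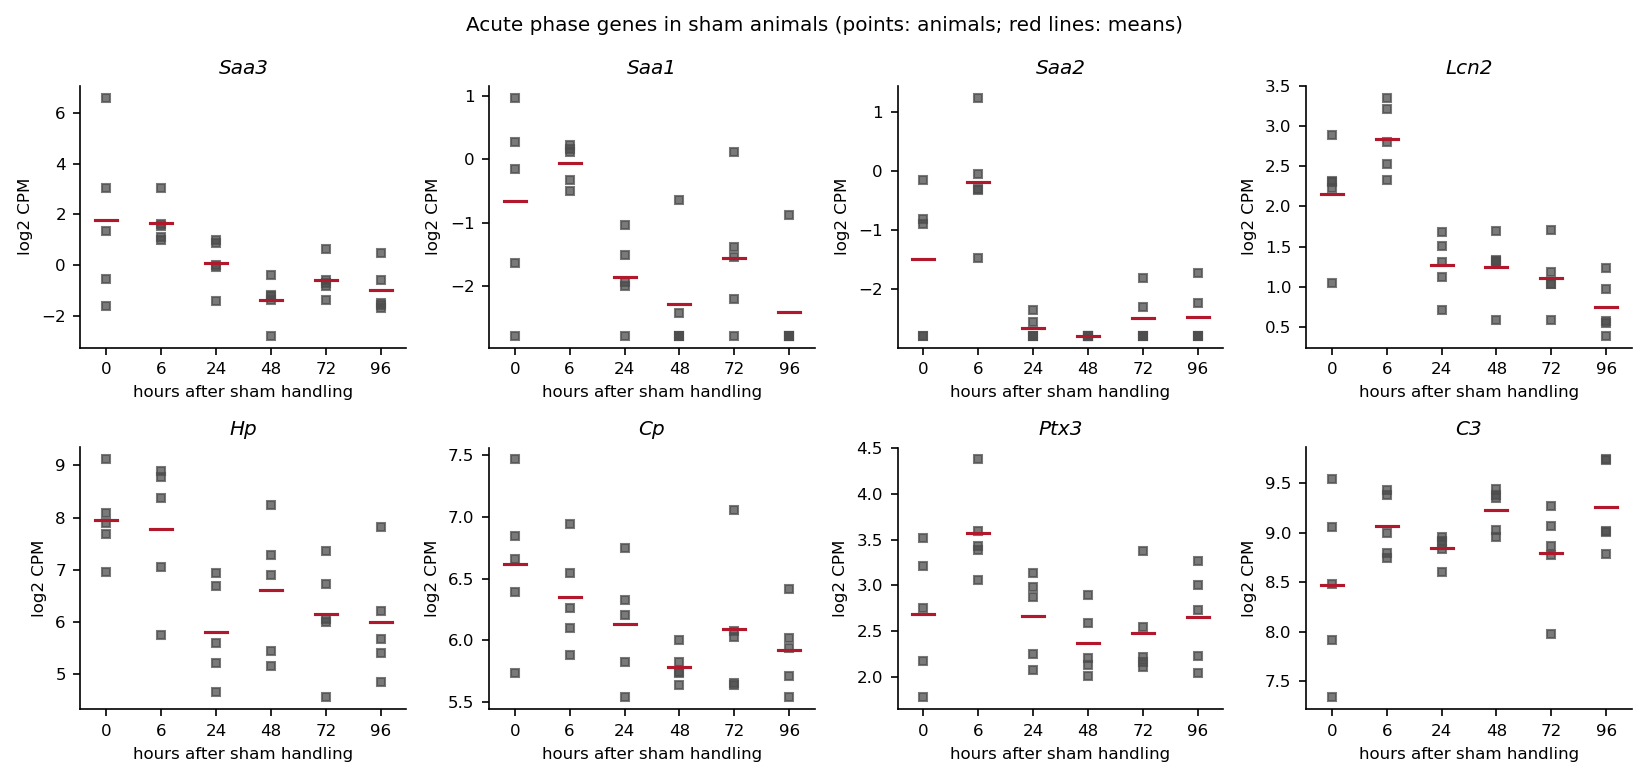
Log2 CPM of the 8 genes in sham animals by hours after handling, with a red line at each mean. Lcn2, Saa2 and Saa3 are highest at 0 or 6 h, and 1 animal at 0 h is far above the others for Saa3 (97.4 CPM).

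Of 26 genes that induce or signal the acute phase response, 23 passed the filter. This list and those below were also chosen with earlier results of these data known. Genes are named from among those called, so their adjusted p-values describe these data and give no independent support. After 40 mJ/cm2 5 of the 23 were called higher at 6 h (beside 2.14% of all genes), 2 at 24 h (1.65%), 8 at 48 h (3.97%), 2 at 72 h (1.04%) and 0 at 96 h (0.118%), and none was called lower at these times. Il6, which codes for interleukin 6, averaged 15.3 ± 11.1 CPM in 40 mJ/cm2 skin and 2.69 ± 2.80 CPM in sham skin at 6 h (log2 2.74 ± 0.80, edgeR adjusted p = 0.0468). At 48 h it averaged 18.2 ± 11.9 CPM in 40 mJ/cm2 skin and 0.726 ± 0.57 CPM in sham skin (4.63 ± 0.68, edgeR adjusted p = 0.000146). Il1b, which codes for interleukin 1 beta, rose at 48 h (2.97 ± 0.53, edgeR adjusted p = 0.00103) and 72 h (4.60 ± 0.97, edgeR adjusted p = 0.0191). Osm, which codes for oncostatin M, a cytokine related to interleukin 6, rose at 48 h (3.06 ± 0.58, edgeR adjusted p = 0.00159). Socs3, the inhibitor that STAT3 induces, rose at 48 h (1.22 ± 0.34, edgeR adjusted p = 0.029), and Cebpd, which codes for C/EBP delta, at 6 h (1.35 ± 0.33, edgeR adjusted p = 0.0174). The median fold of the list was 0.87 at 6 h and 0.50 at 48 h.

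Of 26 other acute phase genes of the liver, 13 passed the low count filter. After 40 mJ/cm2 2 rose at 6 h (beside 2.14% of all genes), 1 at 24 h (1.65%), 3 at 48 h (3.97%) and 3 at 72 h (1.04%). At 48 h 1 fell (3.76% of all genes). Serpina3n, a serine protease inhibitor, averaged 778 ± 168 CPM in 40 mJ/cm2 skin and 187 ± 41.6 CPM in sham skin at 48 h (2.05 ± 0.25, edgeR adjusted p = 1.86e-05). Lbp, which codes for a protein that binds bacterial lipopolysaccharide, rose at 6 h (1.26 ± 0.26, edgeR adjusted p = 0.0044), 48 h (1.48 ± 0.27, edgeR adjusted p = 0.00104) and 72 h (1.88 ± 0.42, edgeR adjusted p = 0.0274). Cd14, the partner of that protein, rose at 6 h (1.54 ± 0.40, edgeR adjusted p = 0.0215). Serpina3g fell by 0.92 on the log2 scale at 48 h (SE 0.28, edgeR adjusted p = 0.0474).

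Receptors for the products of these genes were called at 48 h (4 of 15 tested, all higher, beside 3.97% of all genes) and 72 h (2 of 15, 1.04%). Fpr2, a receptor for serum amyloid A, averaged 3.15 ± 2.13 CPM in 40 mJ/cm2 skin and 0.47 ± 0.173 CPM in sham skin at 48 h (2.702 ± 0.58, edgeR adjusted p = 0.00449), and its fold was 4.53 ± 0.86 at 72 h (edgeR adjusted p = 0.0126). Fpr1, the related receptor for formylated peptides, rose at 48 h (4.82 ± 0.75, edgeR adjusted p = 0.000289). Itgam, a subunit of complement receptor 3, and C3ar1, the receptor for C3a, rose at 48 h by log2 1.30 ± 0.20 and 1.16 ± 0.23 (edgeR adjusted p = 0.000252 and 0.00234). Among 19 complement genes tested beside C3, 3 rose (3.97% of all genes did) and 2 fell (3.76%) at 48 h. Masp1, a protease of the lectin pathway, averaged 112 ± 19 CPM in 40 mJ/cm2 skin and 26.1 ± 4.13 CPM in sham skin (2.10 ± 0.19, edgeR adjusted p = 3.41e-07). Cfb, factor B of the alternative pathway, rose by 1.12 ± 0.30 (edgeR adjusted p = 0.0204), and C7, of the membrane attack complex, fell by 1.11 on the log2 scale (SE 0.29, edgeR adjusted p = 0.018). Among 15 genes of iron and haem handling, Heph, the membrane relative of ceruloplasmin, was the 1 gene called at 6 h and was lower (-1.53 ± 0.37, edgeR adjusted p = 0.0145). Of all genes 2.75% were called lower then. At 48 h 1 of the 15 rose and 1 fell, beside 3.97% and 3.76% of all genes, so nothing is read about this list. At 48 h Hmox1, haem oxygenase, rose by 1.28 ± 0.26 (edgeR adjusted p = 0.00309) and Cybrd1, a ferric reductase, fell by 1.07 on the log2 scale (SE 0.33, edgeR adjusted p = 0.048).

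Markers of some other cells were higher at some of the times when members were called. The summed level of 13 neutrophil markers at 48 h was 37.5, 28.5, 287, 246 and 244 CPM in 40 mJ/cm2 skin, against 2.91 to 19.4 CPM in sham skin. At that time 7 of the 8 tested markers were called higher, beside 3.97% of all genes. At 72 h it was 449, 41.5, 19.4, 808 and 11.3 CPM in 40 mJ/cm2 skin, against 4.9 to 14 CPM in sham skin, high in the same replicates 1 and 4 as the serum amyloid genes and Lcn2. At 72 h 7 of the 8 tested markers were again called higher (1.04% of all genes), while none of them was called at 0, 6, 24 or 96 h. The other neutrophil markers did not pass the low count filter. A marker can pass that filter through the groups where it is high, so nothing is read from these counts of calls. Elane and Ngp, made in immature neutrophils, were at 0 in the 5 irradiated libraries of 72 h, but also in 91 (Elane) and 135 (Ngp) of all 145 libraries. The list includes S100a8 and S100a9, which stressed keratinocytes also make. A list of 12 genes of stressed keratinocytes, which holds both as well as Krt6a and Krt16, summed to 16150, 3706, 575, 19010 and 584 CPM in 40 mJ/cm2 skin at 72 h, against 144 to 524 CPM in sham skin, and 10 of 12 were called higher at 48 h and at 72 h. Of these 12, 7 were called higher at 6 h (2.14% of all genes), 8 at 24 h (1.65%) and 2 at 96 h (0.118%). Of 12 markers of monocytes and macrophages 7 were called higher at 48 h (3.97%) and none at the other times. Muscle genes summed to between 18530 and 32820 CPM in 40 mJ/cm2 skin at 48 h, against 41240 to 66760 CPM in sham skin. Of 16, 9 were called lower, beside 3.76% of all genes. With the level of muscle genes in the model the 48 h fold of Saa3 was 12.73 and that of Lcn2 4.98, both called. The muscle sums of these groups did not overlap, so muscle level and dose are hard to separate in that fit. It called 4196 genes, against 1443 in the main edgeR fit. Of 11 fat cell markers 1 was called lower at 48 h (3.76% of all genes) and none at 72 or 96 h. At 0, 6 and 24 h their median log2 fold change was -0.17, -0.65 and -0.85, beside -0.32, -0.62 and -0.10 for Hp. At 48, 72 and 96 h it was -0.11, 0.54 and 1.62, beside 1.63, 3.25 and 2.52 for Hp. The parts of neutrophils, keratinocytes, macrophages and fat in the folds of the members were not tested.

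Of 12 hepatocyte markers 4 passed the filter, and none of these was called after 40 mJ/cm2. Alb had a median of 1.19 CPM over all libraries and Apoa1 a median of 0, and the sum of the 12 markers was nearly all Cyp2e1 (median 65.9 CPM). The epidermal markers Krt5 and Krt10 were above 0 in every library, which matches the labelled tissue.

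The genes most like each member were ranked by Pearson's r of mean log2 CPM over the 30 groups, as a description of groups that share their libraries and, within a time, their sham animals. For Saa3 they were Serpina3n (0.916), Tmprss11b, Krt6b, Krt6a and Igfl3. Lcn2 was most like Masp1 (0.90), then Krt16, Ms4a6d, Mmp19 and Adam8. Saa1 was most like Cd300lf (0.895), then Cxcl3, Igfl3, Csf3 and Serpina3n. Saa2 was most like Mrgpra2b (0.921), then Cxcl3, Cd300lf, Csf3r and Stfa2l1. Hp was most like Fads3 (0.902), then Alas1, Cidec, Cfd and Mrap, of which Cidec and Cfd are on the list of fat cell markers. Cp was most like Cd36 (0.934), then Ghr, Ginm1, Etfdh and Cavin2. Ptx3 was most like Has1 (0.876), then Srgn, Clec4e and Thbd. C3 had the weakest match, Npr1 (0.763), then Ackr3, Ace, Procr and Ogdh. Among the members themselves r was 0.917 for Saa1 with Saa2 and also with Saa3, and 0.871 for Saa2 with Saa3. With Lcn2 it was 0.879 for Saa2, 0.851 for Saa3 and 0.813 for Saa1. It was 0.715 for Lcn2 and Ptx3, 0.545 for Saa3 and Hp, and -0.08 for Saa3 and Cp.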

How the data were processed

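Per the labels' protocols, stranded poly(A) libraries (300 ng of RNA) were sequenced as single 75-base reads. Titles of 5 libraries begin with repeat. Those of 5 mJ/cm2 replicate 3 and 20 mJ/cm2 replicate 2 at 48 h also name an amount in ng that is not 300 ng. The values analysed are expected counts in a gene table that the authors deposited, 12.6% of them not whole. Tools in the submitters' processing notes are STAR 2.7.10a, fastp 0.23.0, bcl2fastq 2.20.422 and DESeq2 1.36.1, on GRCm39. No source used here names the counting program. Ensembl identifiers were given symbols through GENCODE vM21 (52083 of 55416), and identifiers without one held 0.0906% of counts. Totals ran from 0.18 to 64.6 M per library (median 11.1 M, M for mega), with 2 libraries under 1 M (10 mJ/cm2 replicate 5 at 6 h, 20 mJ/cm2 replicate 5 at 0 h).

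The test was that of edgeR 4.0.16 (R 4.3.3) on rounded expected counts (two-sided quasi-likelihood test, TMM, filterByExpr over 30 groups, 5 doses of a time fitted together, title ending as covariate: 71 libraries R1_001, 74 R1). P-values were adjusted over all 18677 genes kept. CPM use TMM-scaled totals, and log2 CPM a prior count of 2. SE come from the fold and F value of the same fit. Alternatives were DESeq2 1.42.0, RLE scaling, no filter, no covariate, muscle genes as covariate, each title ending alone, 1 fit of all libraries, no libraries under 1 M, and each replicate left out. The count test was checked on simulated data. Genes and lists were chosen with earlier results of these data known. Of each list the up to 4 called genes with the largest fold at each time could be named, and not all are.

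P-values measure the spread between animals, which the labels number individually. In the lists C5 and Krt85 were not matched by symbol. A gene among those most like a member is not reported here.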

Additional observations from a re-analysis of the deposited data

Results flagged for a closer look

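Within groups of 4 or 5 animals, 15 of 240 groups (8 genes in 30 groups) held 1 animal far from the others, 6.25%. Distance was judged on log2 CPM, by the gap to the next animal over the range of the group. An animal far above the others in CPM need not stand out on that scale. Chance gives about 1 in 20 only for independent values. Here the genes share libraries and several groups are mostly at 0 CPM, so nothing is read from this share. The highest animals were the following. Saa1 had 10.2 CPM in 40 mJ/cm2 replicate 4 at 96 h, while the other 3 had at most 0.568 CPM. Saa1 had 0.493 CPM in sham replicate 5 at 48 h and 0.396 CPM in sham replicate 4 at 96 h. Saa2 had 0.308 CPM in 20 mJ/cm2 replicate 2 at 24 h, 0.131 CPM in 10 mJ/cm2 replicate 4 at 96 h and 0.213 CPM in 20 mJ/cm2 replicate 3 at 96 h. Saa3 had 6.09 CPM in 10 mJ/cm2 replicate 1 at 0 h. Cp had 141 CPM in 20 mJ/cm2 replicate 3 at 72 h, while the others had 41.8 to 49.5 CPM.

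The lowest animals were Saa1 in 40 mJ/cm2 replicate 4 at 6 h (0.305 CPM), Saa3 in 10 mJ/cm2 replicate 2 at 24 h (0.088 CPM), Ptx3 in 5 mJ/cm2 replicate 1 at 48 h (1.78 CPM) and C3 in 5 mJ/cm2 replicate 1 at 72 h (110 CPM, the others 297 to 402 CPM). The remaining 3 are in the 2 libraries under 1 M counts, where 1 read is several CPM. Saa2 was at 5.44 CPM and Ptx3 at 0 CPM in 10 mJ/cm2 replicate 5 at 6 h, and Lcn2 was at 0 CPM in 20 mJ/cm2 replicate 5 at 0 h.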

How the results depend on the processing

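Members called lower after 40 mJ/cm2 were Saa3 at 0 h, with DESeq2 (-4.06), no filter (-4.04) and one fit of all libraries (-4.13), and Cp at 24 h with muscle genes in the model (-0.91). At 20 mJ/cm2 and 48 h Cp was called lower with DESeq2 (-0.61) and with muscle genes in the model (-0.62). Those fits called 1113 and 3031 genes, against 90 in the main edgeR fit. After 40 mJ/cm2, with muscle genes in the model, 4234 genes were called at 24 h, against 545, and 4196 at 48 h, against 1443. At 72 h 379 were called with muscle genes, 484 with DESeq2 and 873 in one fit of all libraries, against 236. The calls of Saa3 and Lcn2 at 48 h after 40 mJ/cm2 held under all alternatives. The number of members called higher after 40 mJ/cm2 was 0 at 6, 24 and 72 h in either title ending alone, 2 at 48 h in R1_001 and 0 at 96 h in R1, with fewer animals in each fit. One fit of all libraries gave 1 at 6 h and 3 at 96 h, and no filter gave 3 at 96 h. At 20 mJ/cm2 the count was 2 with DESeq2, with no filter and in one fit of all libraries, and 0 in either ending. Without 1 library, counts ran from 1 to 2 at 6 h, 1 to 3 at 24 h, 1 to 6 at 72 h and 1 to 2 at 96 h, were 5 at 48 h and 0 at 0 h, and were 3 to 4 for sham over time.

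Folds that changed sign were not called before or after the change, and the cause was not tested. The largest, that of C3 at 48 h, went from -0.75 to 0.24 with muscle genes in the model. With R1 libraries alone, Saa2 at 6 h was 0.0817, Cp at 96 h 0.32, and C3 -0.59 at 0 h, -0.53 at 6 h and 0.24 at 96 h. With R1_001 alone, Hp at 0 h was 0.28, Ptx3 at 0 h -0.31 and C3 at 72 h -0.39. With muscle genes in the model, Hp at 24 h was 0.26, and C3 was -0.0805 at 0 h, 0.0505 at 24 h, 0.24 at 48 h and 0.036 at 96 h. Without covariate Cp was 0.0128 and C3 0.0171 at 96 h, and in one fit of all libraries C3 was 0.0161. Without 1 library the folds ran from -0.36 to 0.51 for Saa2 at 6 h, from -0.61 to 0.0753 and from -0.55 to 0.31 for Hp at 0 and 24 h, from -0.33 to 0.10 and from -0.18 to 0.13 for Cp at 72 and 96 h, from -0.18 to 0.22, from -0.10 to 0.65 and from -0.32 to 0.20 for Ptx3 at 0, 24 and 96 h, and from -0.24 to 0.37, from -0.0845 to 0.26, from -0.21 to 0.33 and from -0.30 to 0.12 for C3 at 0, 6, 72 and 96 h.

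No paired analysis was possible because the labels give each animal its own number, and the replicate numbers used here only name animals within a group, in accession order. The leave-one-out fits of Saa3 at 20 mJ/cm2 were added after the data were seen. Saa1 and Saa2 rest on few reads, so folds against sham skin at or near 0 reads are loosely set.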
